A study of Mus musculus with 202 samples.

Results

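The genes that carry a cell from G1 into S phase and copy its DNA were examined in single cells of a mouse pancreatic cancer line sorted by surface E-cadherin. The set holds 31 genes, chosen by symbol, out of 28987 genes in the table, and all 31 were found. They were divided by role into 6 groups, namely the replicative helicase (9 genes), the polymerase with its clamp and flap enzymes (6), nucleotide supply (4), G1/S control (4), the replication checkpoint (3), and chromatin and histone handling (5). Of these genes, 29 lay above an expression floor of 5 TPM on average (transcripts in 1000000) with detection in no fewer than 10% of the cells. The other two, Ung and E2f1, are described as well. Every count below is over all 31.

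The cells were a pancreatic ductal adenocarcinoma line of the KPC strain, from a liver metastasis of a male mouse, grown in DMEM with 10% FBS. Both sorted groups come from the same culture conditions. After trypsin, an anti-Ecad antibody separated Ecad- from Ecad+ cells by flow cytometry, with no other treatment in either group. There are 98 libraries of Ecad- cells and 104 of Ecad+ cells in the table, each from 1 cell captured on a microfluidic device. Of these, 5 pairs of libraries had correlations across the transcriptome of 0.984 to 0.994, the next pair having 0.939. Libraries of such a pair were treated as 1 cell and averaged, leaving 97 cells in the Ecad- group and 100 in the Ecad+ group. No label names separate cultures, so each group is 1 sample of 1 line, no test was made and no p-value is given. A spread is a spread over cells, and 3 library sets, read from a suffix of the library names whose meaning is not stated, give the only repeat. The libraries of each averaged pair lie in different sets and count separately in set values, so the sets share these cells.

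Entry into S phase is set in motion when kinases with cyclin D and cyclin E release E2F transcription factors from the retinoblastoma protein, and E2F factors then drive many of the genes described here. Cdc6 helps to load the Mcm2 to Mcm7 ring onto DNA, Cdc45 and GINS turn the ring into a working helicase, DNA polymerase alpha with primase starts each new strand, and replication factor C loads the Pcna clamp. Ribonucleotide reductase and thymidylate synthase supply the building blocks, and new histones are packed on behind the fork. In a growing tumour cell line such transcripts are abundant before and during S phase and low in resting cells.

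Ductal keratins marked both groups. In Ecad- and Ecad+ cells, means were 472 and 992 TPM for Krt8 and 162 and 650 TPM for Krt7. Krt18 had 1319 and 1752 TPM and Krt19 had 290 and 899 TPM. Epcam, a further epithelial marker, was above 0 in only 25 of 97 Ecad- and 46 of 100 Ecad+ cells. The gene of the sorted protein, Cdh1, had 16.1 TPM in Ecad- cells against 37.9 TPM in Ecad+ cells. Markers of fibroblasts summed to 0.486 and 0.102 TPM and those of endothelium to 0.195 and 0.00509 TPM in Ecad- and Ecad+ cells. Ptprc, a defining immune gene, and the collagen gene Col3a1 were listed at 0 in all cells. The 5 of 6 immune markers that were matched summed to 30.3 TPM in Ecad- cells against 6.46 TPM in Ecad+ cells, almost all of it Cd68, and the part of this in the values below was not tested. The mitochondrial share of TPM was under 1% in 40 of 97 Ecad- cells and 1 of 100 Ecad+ cells. These are termed low-share cells and made up 6 of 33, 12 of 32 and 22 of 33 Ecad- libraries of sets 1 to 3. Results are also given with these cells removed (57 Ecad- and 99 Ecad+ cells remaining). Ecad- cells had a median of 8694 genes above 0 and Ecad+ cells 10338, and of 4582 and 4757.5 genes above 10 TPM. TPM keeps no read depth, so the depth is unknown and a value of 0 means that a gene is listed at 0. Across the 7227 genes above the floor, the median log2 ratio of mean TPM, Ecad- over Ecad+ after adding 1 TPM to both means, was 0.31. In library sets 1 to 3 this median was 0.16, 0.44 and 0.26. It was -0.28 with means of log2 values, 0.0064 with mitochondrial and ribosomal protein genes left out of each cell's total, and 0.14 without low-share cells. Values called relative have the all-gene median subtracted.

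G1/S and replication genes as a group were lower in Ecad- cells than in Ecad+ cells. Pooled over all cells, Rfc5 and Rrm2 had the lowest ratios, while Pola1 and Chaf1b had higher means in Ecad- cells and Slbp and Nasp were close to even. Without low-share cells Rfc5 was still lowest at -1.47, but Rrm2 at -1.09 stood behind Mcm5, Mcm6 and Dtl at -1.16, -1.12 and -1.11, and Chaf1b was at 0.03. In set 1 Ccne2 (-1.42), Rfc5 (-1.35) and Ccne1 (-1.27) were lowest. The median of the 31 ratios was -0.45, or -0.75 relative to all genes, and 27 of the 31 lay below the all-gene median. In sets 1 to 3 the relative median was -0.43, -0.72 and -1.19. Without low-share cells it was -0.81, with -0.69, -0.61 and -1.14 in the sets, and 30 of the 31 genes then lay below the all-gene median.

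Read against all genes, the calls on means were few and those on consistency across library sets were more numerous. A mean at least 2-fold lower in Ecad- cells, that is a log2 ratio of -1 or less, was seen for 3 of 31 genes (Rfc5, Rrm2 and Mcm5) and for 4.14% of all genes above the floor. This count was 6 without set 1, 10 without set 2 and 7 without low-share cells. The share over all genes was not counted for these 3 settings, so the larger counts cannot be read against it. A ratio of 1 or more was seen for Pola1 alone, against 14.2% of all genes. The ratio was below 0 in each of the 3 sets for 15 of 31 genes, against 14.8% of all genes. It was above 0 in each set for 4 genes (Mcm2, Pola1, Ung and Chaf1b), against 44.9% of all genes. After centring each set on its own all-gene median, 19 of 31 genes were below it in each set and 2, Pola1 and Chaf1b, above it in each set. Each of these centred calls took 29.5% of all genes.

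**Figure D1:**
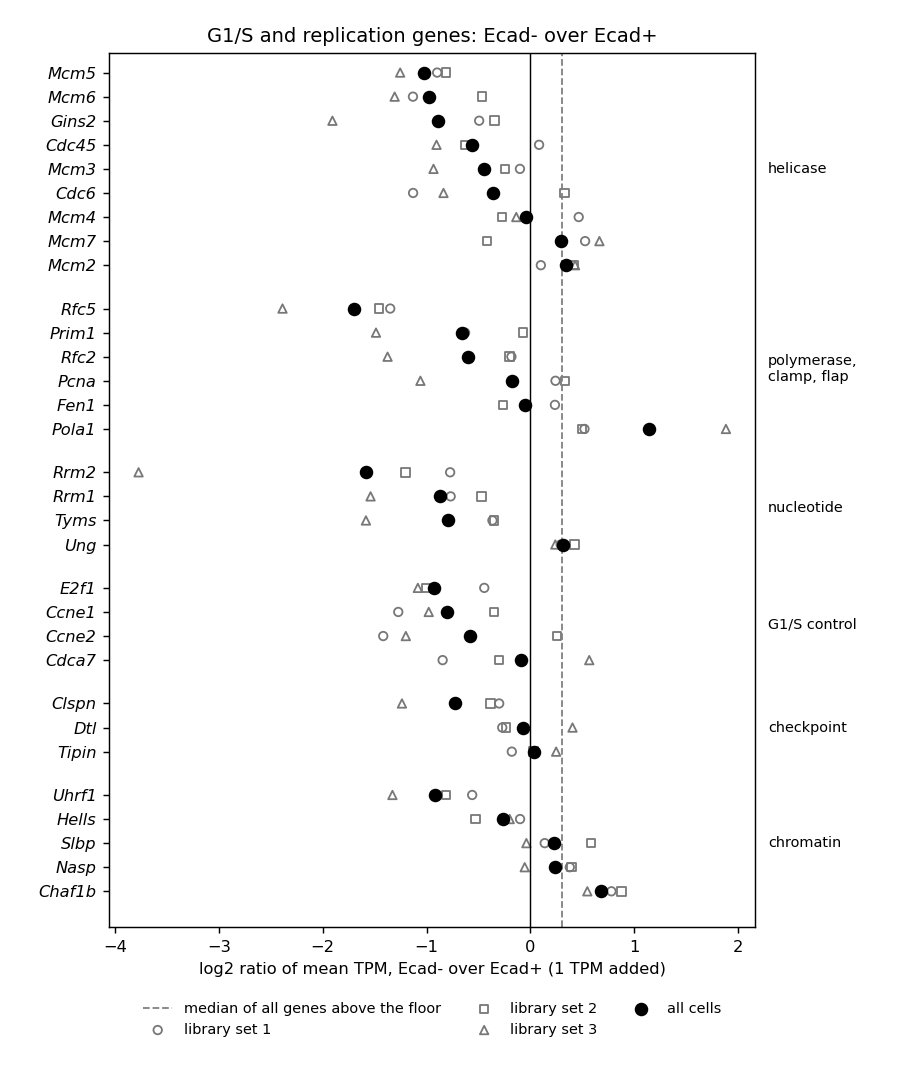
Log2 ratio of mean TPM, Ecad- over Ecad+ with 1 TPM added, for the 31 genes by role, with filled points for all cells and open symbols for library sets 1, 2 and 3; the dashed line is the median of all genes at 0.31. Rfc5 and Rrm2 lie farthest to the left, at -1.70 and -1.58, and Pola1 farthest to the right at 1.14; the lowest open symbol is Rrm2 in set 3 at -3.77.

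Medians and shares of cells showed wider differences than means for many of the genes. The share of cells above 10 TPM was lower by 20 percentage points or more in Ecad- cells for 15 of 31 genes, against 15% of all genes. These were Mcm3, Mcm4, Mcm5, Mcm6, Cdc45, Gins2, Prim1, Rfc2, Rfc5, Fen1, Rrm1, Rrm2, Clspn, Uhrf1 and Hells. The median gene of the 31 differed by -18.7 points and the median of all genes by -4.40 points. With the median over cells in place of the mean, a comparison added after the data were seen, 19 of 31 genes had a log2 ratio of -1 or less, against 23.5% of all genes. The number of genes above 0 per cell was also lower in Ecad- cells, as given above, and its part in these shares was not tested.

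**Figure D2:**
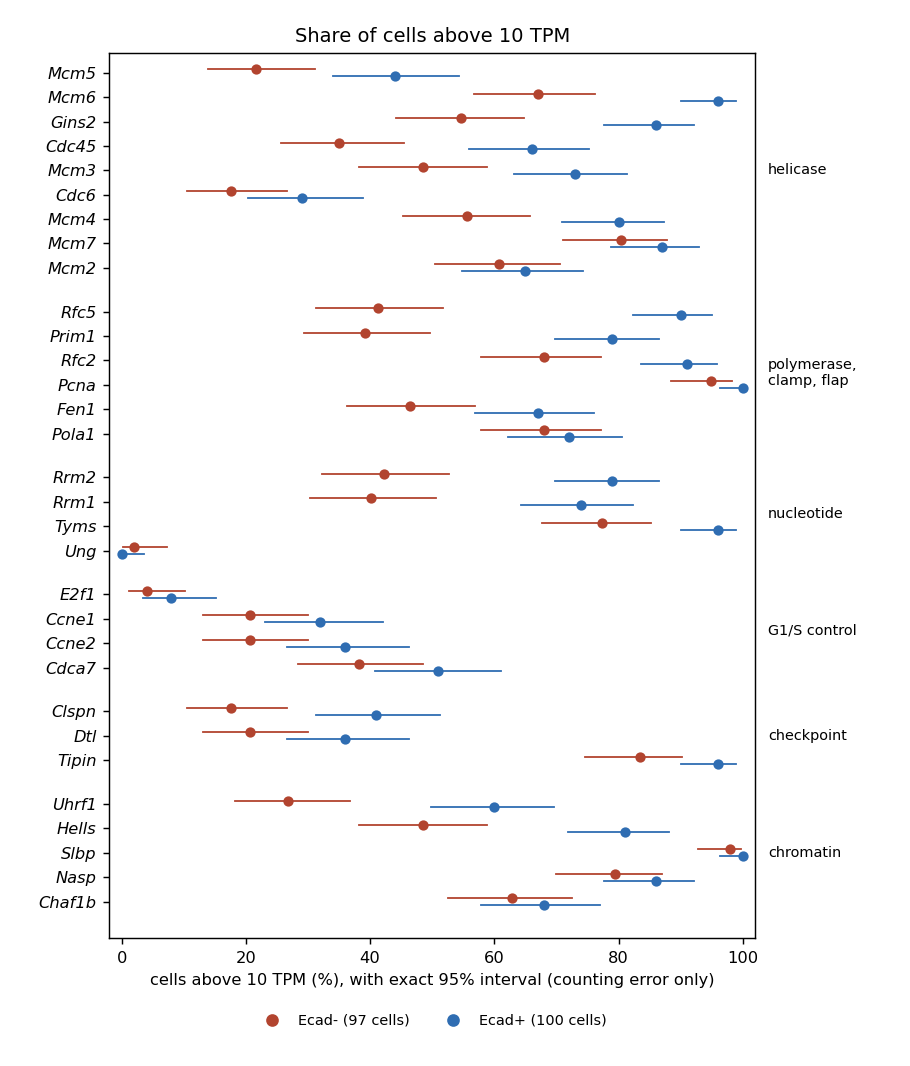
Percent of cells above 10 TPM for each of the 31 genes by role, in 97 Ecad- cells (red) and 100 Ecad+ cells (blue), with exact 95% intervals that cover counting error only. Rfc5 has the widest gap, at 41.2% of Ecad- and 90.0% of Ecad+ cells, while Slbp, Pola1, Mcm2 and Chaf1b lie close together.

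Promoters were set beside these values because E2F sites are the best known feature shared by G1/S genes. Sequences from RefSeq (GRCm38.p6), running from 250 bases before to 50 bases after a listed start of the gene, were matched for 26 of the 31 genes. The letters searched on both strands were TTTCCCGC, TTTCGCGC, TTTGCCGC and TTTGGCGC, which are versions of the E2F site and can overlap one another. A match was found for 11 of 26 genes (42.3%), namely Cdc6, Cdca7, Clspn, Dtl, Hells, Mcm3, Mcm5, Mcm6, Mcm7, Pola1 and Uhrf1. All 32851 promoters of the table held one in 2.26% of cases, the 5279 matched genes above the floor in 5.27%, the 40 matched other replication genes in 35.0% and the 20 matched G2/M genes in 5.00%. By role, it was found for 5 of 7 helicase genes, 1 of 5 polymerase genes, 0 of 4 nucleotide genes, 1 of 3 control genes, 2 of 2 checkpoint genes and 2 of 5 chromatin genes. A match is a description of letters and not of bound factor, and no match says only that these letters are not in this window. The 11 genes with a match had log2 ratios from -1.02 to 1.14 with a median of -0.36. The 15 without one ranged from -1.70 to 0.68 with a median of -0.56, and the lowest gene, Rfc5, has no match while the highest, Pola1, has one. By the share of cells above 10 TPM the order was reversed. The median difference, Ecad- minus Ecad+, was -22.4 points for genes with a match and -11.4 points for those without. Printed here, 5′ to 3′ on the gene's strand with the matches in capitals, are the promoters of the matched genes with the lowest ratios (Rfc5 and Rrm2) and the highest (Pola1 and Chaf1b). The 4 genes with a match and the lowest ratios (Mcm5, Mcm6, Uhrf1 and Clspn) follow.
Rfc5: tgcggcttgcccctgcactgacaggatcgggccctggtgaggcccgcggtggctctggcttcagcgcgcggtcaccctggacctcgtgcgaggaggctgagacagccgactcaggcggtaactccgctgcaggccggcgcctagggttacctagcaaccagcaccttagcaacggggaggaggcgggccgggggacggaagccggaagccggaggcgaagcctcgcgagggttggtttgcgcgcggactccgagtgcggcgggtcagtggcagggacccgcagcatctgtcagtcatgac
Rrm2: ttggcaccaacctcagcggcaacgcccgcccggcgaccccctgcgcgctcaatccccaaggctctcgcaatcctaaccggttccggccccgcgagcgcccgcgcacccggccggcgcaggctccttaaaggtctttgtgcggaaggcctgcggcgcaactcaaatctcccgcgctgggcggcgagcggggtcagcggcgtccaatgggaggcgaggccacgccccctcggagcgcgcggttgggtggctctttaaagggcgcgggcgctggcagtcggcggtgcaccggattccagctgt
Pola1: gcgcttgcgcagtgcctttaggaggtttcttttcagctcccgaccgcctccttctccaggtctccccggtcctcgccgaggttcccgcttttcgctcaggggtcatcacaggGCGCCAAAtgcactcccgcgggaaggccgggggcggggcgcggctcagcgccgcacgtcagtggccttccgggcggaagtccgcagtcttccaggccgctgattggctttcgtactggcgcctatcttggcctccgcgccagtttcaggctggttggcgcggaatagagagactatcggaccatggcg
Chaf1b: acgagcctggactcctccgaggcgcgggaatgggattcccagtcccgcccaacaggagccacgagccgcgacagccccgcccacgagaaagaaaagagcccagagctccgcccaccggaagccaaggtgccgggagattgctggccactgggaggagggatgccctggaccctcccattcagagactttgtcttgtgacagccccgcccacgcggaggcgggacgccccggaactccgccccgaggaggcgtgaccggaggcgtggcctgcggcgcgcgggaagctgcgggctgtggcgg
Mcm5: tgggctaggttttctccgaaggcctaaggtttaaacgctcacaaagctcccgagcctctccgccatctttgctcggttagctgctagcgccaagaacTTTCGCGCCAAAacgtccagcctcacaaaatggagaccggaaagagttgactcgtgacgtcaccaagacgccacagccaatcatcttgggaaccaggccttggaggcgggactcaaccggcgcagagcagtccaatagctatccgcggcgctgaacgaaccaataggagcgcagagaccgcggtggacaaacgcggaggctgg
Mcm6: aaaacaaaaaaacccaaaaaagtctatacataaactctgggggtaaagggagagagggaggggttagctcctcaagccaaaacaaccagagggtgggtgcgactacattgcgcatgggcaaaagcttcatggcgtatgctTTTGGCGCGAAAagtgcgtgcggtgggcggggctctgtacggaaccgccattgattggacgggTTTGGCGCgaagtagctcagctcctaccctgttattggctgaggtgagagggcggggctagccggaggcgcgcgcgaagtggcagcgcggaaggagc
Uhrf1: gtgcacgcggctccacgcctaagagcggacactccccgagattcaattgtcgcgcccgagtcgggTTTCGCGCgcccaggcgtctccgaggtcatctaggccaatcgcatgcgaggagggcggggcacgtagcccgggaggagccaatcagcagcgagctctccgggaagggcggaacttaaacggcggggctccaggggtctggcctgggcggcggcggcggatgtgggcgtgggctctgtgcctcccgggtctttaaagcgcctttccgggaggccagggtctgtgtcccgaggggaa
Clspn: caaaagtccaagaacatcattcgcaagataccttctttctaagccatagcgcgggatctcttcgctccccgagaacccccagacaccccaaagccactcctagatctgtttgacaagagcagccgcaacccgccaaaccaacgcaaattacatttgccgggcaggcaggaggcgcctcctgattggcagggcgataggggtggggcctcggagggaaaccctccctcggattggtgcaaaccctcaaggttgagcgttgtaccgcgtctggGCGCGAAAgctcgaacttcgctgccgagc
Rfc5 lies at chr5:117388974-117389273 (minus strand), Rrm2 at chr12:24708004-24708303 (plus strand), Pola1 at chrX:93632106-93632405 (minus strand), and Chaf1b at chr16:93883651-93883950 (plus strand). Mcm5 lies at chr8:75109259-75109558 (plus strand), Mcm6 at chr1:128359656-128359955 (minus strand), Uhrf1 at chr17:56304063-56304362 (plus strand), and Clspn at chr4:126556730-126557029 (plus strand). Mcm5 has 2 overlapping matches on opposite strands, which begin 153 and 149 bases before the start. Mcm6 has 3, of which the first 2 overlap in the same way at 110 and 106 bases before the start and the third begins 47 bases before it. Uhrf1 has 1 match in 1 of its 2 listed promoters, 185 bases before the start of that promoter. The window of this promoter lies downstream of the GENCODE gene start at 56303321. In Clspn the match begins 21 bases after the start, and in Pola1 it begins 138 bases before it.

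Among the helicase genes, the ring subunits did not differ by the same amount. Mcm5 and Mcm6 were lower in Ecad- cells and Mcm2 and Mcm7 were close to even, although the 6 subunits form 1 ring. Mcm6 (chromosome 1, 128331590 to 128359664 in mm10) ran from 0 over a median of 17.3 to 260 TPM in Ecad- cells and from 0 over 44.7 to 390 TPM in Ecad+ cells. Its means were 31.7 ± 43.7 TPM (SD, n = 97 Ecad- cells) and 63.5 ± 60.3 TPM (SD, n = 100 Ecad+ cells), which is a ratio of -0.98. The ranges overlap throughout, yet 65 of 97 Ecad- cells (67.0%) and 96 of 100 Ecad+ cells had over 10 TPM. The Mcm6 ratio was -1.13, -0.46 and -1.31 in sets 1 to 3 and -1.12 without low-share cells.

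Mcm5, a ring subunit at a lower level, had a median of 0.0366 TPM in Ecad- cells against 8.64 TPM in Ecad+ cells, with highest values of 38.4 and 75.5 TPM. It averaged 5.39 ± 9.33 TPM in Ecad- cells against 12.0 ± 13.4 TPM in Ecad+ cells, a ratio of -1.02 that was -0.90, -0.81 and -1.25 in the sets. The median Ecad- cell was thus near 0 for Mcm5, and 21 of 97 Ecad- against 44 of 100 Ecad+ cells passed 10 TPM. Mcm3 had medians of 8.01 TPM in Ecad- cells against 21.3 TPM in Ecad+ cells, and means of 19.9 and 27.5 TPM (ratio -0.45). Mcm4 had medians of 13.9 TPM in Ecad- cells against 27.5 TPM in Ecad+ cells but nearly equal means of 31.0 and 32.0 TPM, a ratio of -0.04 that was 0.47, -0.27 and -0.14 in the sets and -0.54 without low-share cells. For Mcm4 the typical cell therefore differed more than the mean, with 54 of 97 Ecad- and 80 of 100 Ecad+ cells above 10 TPM.

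Mcm2 had medians of 13.8 TPM in Ecad- cells against 12.9 TPM in Ecad+ cells and means of 24.7 and 19.3 TPM, a ratio of 0.34 (0.10, 0.42 and 0.43 in the sets). Its sign depends on the scale, since it was -0.17 with means of log2 values and -0.22 without low-share cells. Mcm7, the ring gene with the highest mean in Ecad- cells, ran from 0 over 37.1 to 614 TPM in Ecad- cells and from 0 over 40.8 to 165 TPM in Ecad+ cells. Its ratio was 0.30, with 0.53, -0.42 and 0.67 in the sets and -0.18 without low-share cells, so it has no stable direction. The exons of Mcm7 overlap Ap4m1 on the other strand over 7.25% of their bases.

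The factors that load and complete the helicase were lower as well. Cdc45, which joins the ring at the origin, had a median of 0 TPM in Ecad- cells against 20.5 TPM in Ecad+ cells, with highest values of 168 and 122 TPM. It averaged 17.9 ± 33.7 TPM in Ecad- cells against 26.8 ± 28.1 TPM in Ecad+ cells, a ratio of -0.56 (0.08, -0.63 and -0.90 in the sets). Over 10 TPM were 34 of 97 Ecad- and 66 of 100 Ecad+ cells, so fewer Ecad- cells carried it while single Ecad- cells reached higher levels. Gins2, a subunit of the GINS complex, ran from 0 over 22.4 to 413 TPM in Ecad- cells and from 0 over 58.8 to 329 TPM in Ecad+ cells. It averaged 43.9 ± 62.1 TPM in Ecad- cells against 82.1 ± 76.9 TPM in Ecad+ cells, a ratio of -0.89 (-0.49, -0.35 and -1.91 in the sets). The value of Gins2 is uncertain, because 67.3% of its exon bases also lie in Gse1 on the other strand and the libraries do not mark strand. Gse1 itself was at 0.655 TPM in Ecad- cells against 0.364 TPM in Ecad+ cells. Cdc6, the loading factor, had medians of 0 TPM in Ecad- cells against 4.40 TPM in Ecad+ cells and means of 6.00 and 7.97 TPM (ratio -0.36). Its direction was -1.13 in set 1, 0.33 in set 2 and -0.84 in set 3, so it is not the same in all sets.

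The polymerase group held both ends of the range. Rfc5, a subunit of the clamp loader, was the lowest of the 31 genes and Pola1, the catalytic subunit of DNA polymerase alpha, the highest. Rfc5 (chromosome 5, 117378103 to 117389047) ran from 0 over a median of 2.06 to 211 TPM in Ecad- cells and from 0 over 64.4 to 243 TPM in Ecad+ cells. It averaged 22.5 ± 37.9 TPM (SD, n = 97 Ecad- cells) and 75.1 ± 55.6 TPM (SD, n = 100 Ecad+ cells), a ratio of -1.70. A level above 10 TPM was reached by 40 of 97 Ecad- cells, or 41.2% with an exact 95% interval of 31.3% to 51.7%, and by 90 of 100 Ecad+ cells with an interval of 82.4% to 95.1%, both of which cover counting error only. The difference was present in each set, at -1.35, -1.46 and -2.39, and the ratio was -1.47 without low-share cells. Exons of Rfc5 overlap Wsb2 on the other strand over 10.7% of their bases, and Wsb2 had 53.7 TPM in Ecad- cells against 23.0 TPM in Ecad+ cells, the opposite direction. Rfc2, another clamp loader subunit, differed less, with medians of 22.5 TPM in Ecad- cells against 39.4 TPM in Ecad+ cells and a ratio of -0.60 (-0.18, -0.20 and -1.38 in the sets). Rfc5 and Rfc2 were thus lower in each set, by unequal amounts, but on mean TPM this did not hold for the clamp loader as a whole. Its subunits Rfc3 and Rfc4, outside the 31 genes, had ratios of 0.34 and 0.61, with higher means in Ecad- cells in each set. Medians in Ecad- and Ecad+ cells were 39.3 and 36.8 TPM for Rfc3 but 63.5 and 96.5 TPM for Rfc4. Rfc1 was at -0.03, and its sets did not share a direction. Without low-share cells Rfc3, Rfc4 and Rfc1 were at -0.40, -0.52 and -0.55. With means of log2 values they were at -0.50, -0.88 and -0.75, so the direction of Rfc3 and Rfc4 depends on the scale. Rfc1, Rfc3 and Rfc4 were named after their values were seen.

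Pola1 (chromosome X, 93304767 to 93632155) ran from 0 over a median of 20.3 to 983 TPM in Ecad- cells and from 0.0608 over 20.1 to 157 TPM in Ecad+ cells. It averaged 53.2 ± 127.7 TPM in Ecad- cells against 23.6 ± 21.9 TPM in Ecad+ cells, a ratio of 1.14 that was 0.52, 0.50 and 1.88 in the sets. The medians lie within 1 TPM of each other, and 66 of 97 Ecad- and 72 of 100 Ecad+ cells had over 10 TPM. A single Ecad- cell held 19.0% of the Ecad- sum, and without it the ratio was 0.86. With medians over all cells the ratio was 0.01, but the sets disagreed. Medians in Ecad- against Ecad+ cells were 27.7 against 10.1 TPM in set 1. They were 20.9 against 23.1 TPM in set 2 and 14.2 against 21.6 TPM in set 3. Pooled over the sets, the higher mean of Pola1 lay in the upper tail of Ecad- cells. The 90th percentile was 95.3 TPM there against 47.8 TPM in Ecad+ cells. Prim1, the primase subunit that works beside Pola1, went the other way. Its median was 0.387 TPM in Ecad- cells against 37.3 TPM in Ecad+ cells and its mean 26.7 ± 60.2 and 42.9 ± 39.1 TPM, a ratio of -0.66 (-0.63, -0.07 and -1.49 in the sets).

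Pcna, the sliding clamp and the most abundant of the 31 transcripts, ran from 0 over a median of 157 to 1971 TPM in Ecad- cells and from 26.4 over 193 to 925 TPM in Ecad+ cells. It averaged 220.0 ± 252 TPM in Ecad- cells against 249 ± 188 TPM in Ecad+ cells, a ratio of -0.18. The sets did not share a direction for Pcna, at 0.24, 0.33 and -1.06, so set 3 alone carries the lower value. Nearly all cells had it, with 92 of 97 Ecad- and 100 of 100 Ecad+ cells above 10 TPM. The pseudogene Pcna-ps2 had 0.177 TPM in Ecad- cells against 0.176 TPM in Ecad+ cells, so few reads were given to that copy. Fen1, the flap nuclease that trims Okazaki fragments, had medians of 7.78 TPM in Ecad- cells against 16.8 TPM in Ecad+ cells but means of 18.6 and 19.3 TPM (ratio -0.05). Without low-share cells its ratio was -1.03. Its value is uncertain, since 78.8% of its exon bases also lie in the antisense gene Gm10143.

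**Figure D3:**
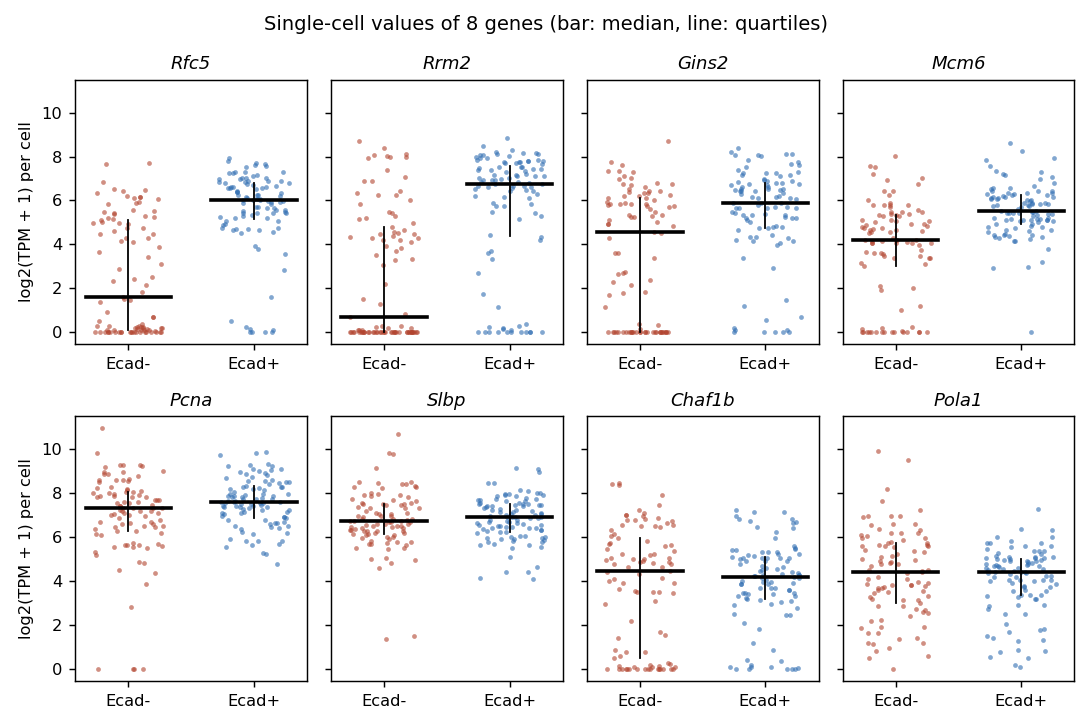
Values of 8 genes in each cell, as log2(TPM + 1), for Ecad- cells (red, left) and Ecad+ cells (blue, right), with bars at medians and lines over the quartiles; sideways scatter within a column has no meaning. Many Ecad- cells sit at or near 0 for Rfc5 and Rrm2, while Pcna, Slbp and Pola1 have similar medians in both groups.

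Nucleotide supply genes had the lowest summed ratio of the 6 groups. The 4 genes together averaged 150 TPM in Ecad- cells against 313 TPM in Ecad+ cells, with a log2 ratio of -1.06, and the median of their ratios was -1.14 relative to all genes. Rrm2 (chromosome 12, 24708241 to 24714146), the small subunit of ribonucleotide reductase whose level limits the enzyme in cycling cells, ran from 0 over 0.618 to 410.5 TPM in Ecad- cells and from 0 over 108 to 462 TPM in Ecad+ cells. It averaged 39.6 ± 82.3 TPM in Ecad- cells against 120.3 ± 100.4 TPM in Ecad+ cells, a ratio of -1.58. Over 10 TPM were 41 of 97 Ecad- cells (42.3%) and 79 of 100 Ecad+ cells, so the groups overlap but most Ecad- cells were low. The ratio was -0.77 and -1.20 in sets 1 and 2 and -3.77 in set 3, where Ecad- and Ecad+ cells had means of 7.99 and 122 TPM. Without low-share cells Rrm2 stood at -1.09, with an Ecad- median of 11.9 TPM against 108 TPM in Ecad+ cells, and at -3.81 in set 3.

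Rrm1, the large subunit of the same enzyme, had medians of 5.13 TPM in Ecad- cells against 27.5 TPM in Ecad+ cells and means of 15.3 ± 30.9 and 28.7 ± 22.1 TPM, a ratio of -0.87. It was lower in each set, at -0.77, -0.47 and -1.54. Tyms, thymidylate synthase, was the most abundant of the group, with medians of 66.3 TPM in Ecad- cells against 145 TPM in Ecad+ cells and means of 94.0 ± 105 and 164 ± 133 TPM. The Tyms ratio of -0.79 was -0.37, -0.35 and -1.58 in the sets, and 75 of 97 Ecad- and 96 of 100 Ecad+ cells had over 10 TPM. One stretch of its transcript is a repeat found in many other genes, so its level is uncertain. Ung, counted in this group, is the glycosylase that removes uracil from DNA and not a supply enzyme. It lay below the floor, with means of 0.764 TPM in Ecad- cells against 0.418 TPM in Ecad+ cells and medians of 0 in both. Its ratio of 0.32 rests on few cells and was -0.09 without low-share cells.

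In the group labelled G1/S control, all 4 genes lay below the all-gene median. Ccne1, which encodes cyclin E1, had medians of 0.442 TPM in Ecad- cells against 2.80 TPM in Ecad+ cells and means of 5.72 ± 11.0 and 10.7 ± 17.7 TPM, a ratio of -0.81. It was lower in each set, at -1.27, -0.35 and -0.98. Ccne2, the other cyclin E gene, had a median of 0 TPM in Ecad- cells against 4.03 TPM in Ecad+ cells, with means of 7.11 and 11.2 TPM and a ratio of -0.58. The sets gave -1.42, 0.26 and -1.20 for Ccne2, and 17.4% of its exon bases overlap Ints8 on the other strand. E2f1, an activating member of the E2F family, was below the floor, with means of 1.24 ± 3.00 TPM in Ecad- cells against 3.26 ± 4.70 TPM in Ecad+ cells (ratio -0.93). Its highest values were 15.9 TPM in Ecad- cells against 34.1 TPM in Ecad+ cells, so few cells of either group passed 10 TPM, 4 of 97 and 8 of 100. Cdca7, a nuclear protein induced at the start of S phase, had medians of 5.36 TPM in Ecad- cells against 10.1 TPM in Ecad+ cells and a ratio of -0.09. Its sets disagreed, at -0.84, -0.30 and 0.57.

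The place of the 3 checkpoint genes among the role groups varied with the cells used. Pooled over all cells, they had a median of -0.38 relative to all genes, against -0.75 for the helicase, -0.70 for the polymerase and -1.14 for the nucleotide group, the control group lying between the polymerase and nucleotide values and the chromatin group at -0.08. Without low-share cells it was -1.02 for the checkpoint, -0.86 for the helicase, -0.99 for the polymerase, -0.92 for the nucleotide, -0.88 for the control and -0.32 for the chromatin group. In sets 1 to 3 the checkpoint median was -0.43, -0.68 and -0.01, against -0.26, -0.79 and -1.17 for the helicase, -0.13, -0.58 and -1.48 for the polymerase, and -0.72, -0.85 and -1.82 for the nucleotide group. The checkpoint median was thus below those of the helicase and polymerase groups in set 1, below that of the polymerase group in set 2, and below all of them without low-share cells. The chromatin group was nearest to the all-gene median with and without those cells. The median difference in the share of cells above 10 TPM was -15.4 points for the checkpoint, -24.3 for the helicase, -21.8 for the polymerase, -26.2 for the nucleotide, -12.1 for the control and -6.62 for the chromatin group. Clspn, which encodes claspin, the adaptor that lets Chk1 be activated at stalled forks, had a median of 0 TPM in Ecad- cells against 7.53 TPM in Ecad+ cells. It averaged 8.02 ± 23.3 TPM in Ecad- cells against 13.9 ± 17.5 TPM in Ecad+ cells, a ratio of -0.73 (-0.30, -0.38 and -1.24 in the sets). Above 10 TPM were 17 of 97 Ecad- and 41 of 100 Ecad+ cells. Dtl, the substrate receptor of an E3 ligase that works on Pcna-bound proteins, had means of 9.04 TPM in Ecad- cells against 9.53 TPM in Ecad+ cells (ratio -0.07) but medians of 0.0478 and 5.78 TPM. A single Ecad- cell held 20.5% of the Ecad- sum of Dtl, and without low-share cells its ratio was -1.11. Tipin, which protects the fork together with Timeless, was the most abundant of the 3, with medians of 66.2 TPM in Ecad- cells against 104 TPM in Ecad+ cells. Its means were nearly equal, at 115 ± 199 and 112 ± 84.6 TPM (ratio 0.04), and its ratio was -0.51 without low-share cells.

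Chromatin and histone genes split into a part that was lower and a part that was not. Uhrf1, which reads hemimethylated DNA behind the fork, had medians of 0.432 TPM in Ecad- cells against 13.0 TPM in Ecad+ cells and means of 7.81 ± 13.8 and 15.7 ± 15.3 TPM, a ratio of -0.92. It was lower in each set, at -0.56, -0.81 and -1.33, and 26 of 97 Ecad- against 60 of 100 Ecad+ cells had over 10 TPM. Hells, a chromatin remodeller that works in DNA methylation, had medians of 8.86 TPM in Ecad- cells against 38.1 TPM in Ecad+ cells and a ratio of -0.27, with 47 of 97 and 81 of 100 cells above 10 TPM. Slbp, which binds the stem-loop of histone messenger RNA, ran from 1.57 over 107 to 1665 TPM in Ecad- cells and from 16.1 over 119 to 567 TPM in Ecad+ cells. It was present in nearly all cells, with 95 of 97 Ecad- and 100 of 100 Ecad+ cells above 10 TPM, and its ratio was 0.23, or -0.05 without low-share cells. Nasp, a histone chaperone, had almost equal medians of 32.7 TPM in Ecad- cells against 33.4 TPM in Ecad+ cells and a ratio of 0.23, or -0.19 without low-share cells. Chaf1b, a subunit of chromatin assembly factor 1, had medians of 21.3 TPM in Ecad- cells against 17.4 TPM in Ecad+ cells and means of 46.7 ± 70.8 and 28.7 ± 34.2 TPM. Its ratio was 0.68 and was above 0 in each set, at 0.78, 0.88 and 0.55. With means of log2 values it was -0.18, and without low-share cells it was 0.03. The other large subunit of that complex, Chaf1a, had 4.75 TPM in Ecad- cells against 10.1 TPM in Ecad+ cells (ratio -0.95). As a group the 5 chromatin genes had a relative median of -0.08, and -0.32 without low-share cells.

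Counted cell by cell, Ecad- cells carried fewer of these transcripts at once. The number of the 31 genes above 10 TPM ran from 4 over a median of 14 to 29 in Ecad- cells and from 3 over a median of 23 to 30 in Ecad+ cells. The quartiles were 9 and 20 in Ecad- and 15.75 and 26.25 in Ecad+ cells, so the ranges were alike and the bulk was shifted. The summed level of the 31 genes had a median of 849 TPM per Ecad- cell, with quartiles of 539 and 1481 TPM, against 1355 TPM per Ecad+ cell, with quartiles of 706 and 2052 TPM. In sets 1 to 3 the medians were 15, 15 and 13 for Ecad- cells, against 20.5, 24 and 22 for Ecad+ cells. Without low-share cells the medians were again 14 and 23. At least 20 of the 31 genes were above 10 TPM in 25 of 97 Ecad- cells, or 25.8% with an exact 95% interval of 17.4% to 35.7%. The same held for 66 of 100 Ecad+ cells, with an interval of 55.8% to 75.2%. Of the Ecad- cells without a low mitochondrial share, 15 of 57 (26.3%) did so. At most 10 of the genes were above 10 TPM in 32 of 97 Ecad- and 12 of 100 Ecad+ cells. All 6 genes of the Mcm2 to Mcm7 ring were above 10 TPM together in 15 of 97 Ecad- and 36 of 100 Ecad+ cells, and above 0 together in 30 of 97 and 76 of 100 cells.

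**Figure D4:**
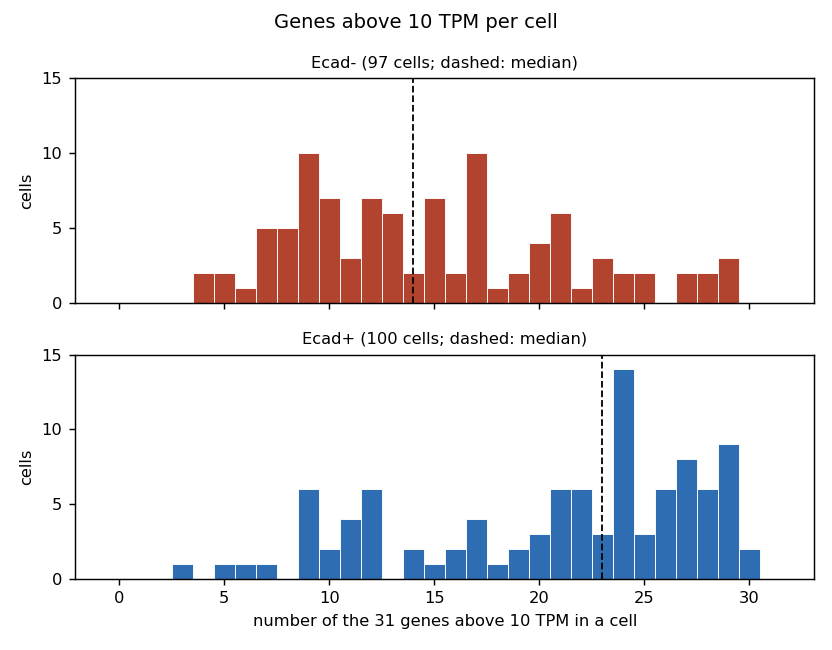
Number of the 31 genes above 10 TPM in a cell (horizontal axis) against the number of cells (vertical axis), for 97 Ecad- cells (top) and 100 Ecad+ cells (bottom), with dashed lines at the medians of 14 and 23. Both groups reach from few genes to nearly all, but Ecad- cells pile up at the low end and Ecad+ cells at the high end.

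The 31 genes moved together from cell to cell inside each sorted group, with higher correlations in Ecad+ cells. Over all 465 pairs the median Pearson r of log2(TPM + 1) was 0.34 across 97 Ecad- cells and 0.59 across 100 Ecad+ cells. Pairs of all genes above the floor had a median r of 0.0803 in Ecad- and 0.0702 in Ecad+ cells. Cells of a group share the culture, the sort and the device, and differ in depth and scaling, so these values are a description. In Ecad+ cells the closest pairs were Mcm5 with Uhrf1 (0.85), Cdc45 with Rrm2 (0.84) and Mcm3 with Mcm5 (0.84). In Ecad- cells they were Mcm5 with Cdc45 (0.66), Mcm5 with Hells (0.63) and Cdc45 with Uhrf1 (0.62). Pola1 had the weakest tie to the others in Ecad- cells, with a median r of 0.22, against 0.53 in Ecad+ cells. Pcna had 0.24 in Ecad- and 0.62 in Ecad+ cells, and Rrm2 had 0.29 and 0.65. Without low-share cells, the median over all pairs was 0.37 across 57 Ecad- cells. The count of the 31 genes above 10 TPM correlated with the count of all genes above 10 TPM at 0.49 in Ecad- and 0.06 in Ecad+ cells, so in Ecad- cells it moved with the overall number of genes seen.

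G2/M genes, 22 genes of chromosome condensation and mitosis listed for comparison, went with the G1/S genes in the same cells. Their count above 10 TPM had a median of 3 in Ecad- and 19 in Ecad+ cells, and it correlated with the count of the 31 genes at 0.71 across Ecad- and 0.64 across Ecad+ cells. Both counts were high, with at least 20 G1/S and at least 15 G2/M genes, in 17 of 97 Ecad- and 55 of 100 Ecad+ cells. Both were low, with at most 10 and at most 5, in 30 of 97 Ecad- and 11 of 100 Ecad+ cells. Cells with at least 20 G1/S genes but at most 5 G2/M genes were few in each group, 3 of 97 and 5 of 100. These cut-offs were chosen after the data were seen. The median ratio of the G2/M genes was -1.50 relative to all genes, with 22 of 22 below the all-gene median, beside -0.75 for the G1/S genes. In sets 1 to 3 the G2/M value was -0.30, -2.33 and -2.12, against -0.43, -0.72 and -1.19 for the G1/S genes, so the G2/M difference was the smaller one in set 1 and the larger one in sets 2 and 3.

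**Figure D5:**
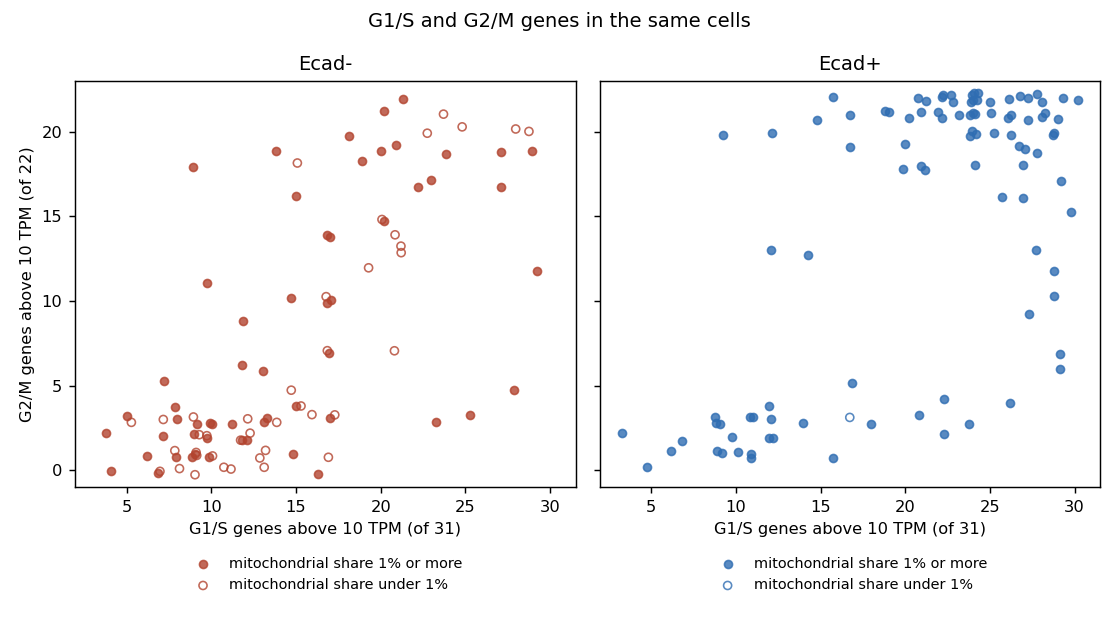
Number of the 31 G1/S genes (horizontal axis) and of 22 G2/M genes (vertical axis) above 10 TPM in each cell, for Ecad- cells (left) and Ecad+ cells (right), with open circles for cells under 1% mitochondrial TPM and points spread slightly to show overlaps. Ecad- cells gather at the lower left and Ecad+ cells at the upper right, and low-share Ecad- cells lie among the others.

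Other genes of the same pathways, listed by role, were in part lower too. Of 47 further replication genes, 35 lay below the all-gene median and 12 above, with a relative median of -0.47. The ratio was below 0 in each of the 3 sets for 14 of the 47 and above 0 in each for 12. Prim2, the other primase subunit, had 9.35 TPM in Ecad- cells against 19.6 TPM in Ecad+ cells (ratio -0.99, and -1.38 without low-share cells). The histone chaperone Asf1b had 24.1 and 45.7 TPM (-0.90, and -1.47). Higher in each set were Orc4, a subunit of the origin recognition complex, with 425 TPM in Ecad- cells against 187 TPM in Ecad+ cells (1.18, and 0.91 without low-share cells), and the polymerase epsilon subunit Pole4 with 253 and 128 TPM (0.98, and 0.43). These last 2 genes were named after their values were seen. Of 14 further nucleotide genes, 13 of them above the floor, 10 lay below and 4 above, with a relative median of -0.63. Tk1, thymidine kinase of the salvage route, had medians of 0.908 TPM in Ecad- cells against 71.7 TPM in Ecad+ cells and a ratio of -1.86, beside -1.58 for Rrm2. Without low-share cells the Tk1 ratio was -1.38. Of 27 further G1/S control genes, only 15 of them above the floor, 23 lay below and 4 above, with a relative median of -0.52. Genes below the floor were counted in all of these lists. A gene near 0 TPM has a ratio near 0 and so counts as below, as did Cdkn1c, listed at 0 in all cells. The counts and medians of these lists therefore do not measure a shared decrease alone. Ccnd1, cyclin D1, had 68.0 TPM in Ecad- cells against 181 TPM in Ecad+ cells (-1.40, and -0.91 without low-share cells). Tfdp1, the partner that E2F factors bind DNA with, had 18.1 and 45.2 TPM (-1.27, and -1.37). Cdkn1a, the kinase inhibitor p21 that holds cells before S phase, had 130 TPM in Ecad- cells against 34.3 TPM in Ecad+ cells (1.89, and 0.69 without low-share cells). Of 15 further checkpoint and repair genes, only 9 of them above the floor, 10 lay below and 5 above, with a relative median of -0.22. Rad9a, part of the checkpoint clamp, stood at 1.77, or 0.63 without low-share cells, with 1 Ecad- cell at 936 TPM.

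The 5 pairs of libraries counted as 1 cell show how member values differ between libraries this alike. Over 155 pairs of member values the median absolute difference was 0.156 on the log2(TPM + 1) scale and the 90th percentile 0.508. A gene was above 0 in just 1 library of the pair in 6 of the 155, and crossed 10 TPM in 2. The SD over cells of a typical gene of the 31 was 2.15 in Ecad- and 1.78 in Ecad+ cells on the same scale. Because the pairs were chosen for a correlation above 0.97, a small difference within them follows from the choice and is no measure of the error in other cells. The count of genes above 10 TPM differed by at most 1 within each pair. Counting without strand adds an error that these pairs cannot show: besides the genes named above, exons overlap a gene on the other strand over 15.1% of bases in Rfc2, 7.80% in Slbp and 5.96% in Cdc45. Processed pseudogenes with at least 95% identity are annotated for Cdc6, Mcm7, Rfc5, Rrm2, Slbp and Uhrf1 as well, and the highest mean among those in the table was 0.0707 TPM, for the Slbp copy Gm8396 in Ecad+ cells.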

How the data were processed

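Single cells were captured on a Fluidigm C1, reverse transcribed and amplified with the SMARTer kit and prepared as Nextera XT libraries, per the labels' protocols; these libraries carry no molecular identifiers and do not mark strand. Reads were handled with FastQC 0.11.5 and kallisto on build mm10, per the submitters' processing notes. The authors deposited 1 table of log2 values for 202 libraries. Back-transformed, each library summed to 933711 to 987134, which fits log2(TPM + 1). How transcripts were summed to genes is not given in the sources used here. Depth is lost in TPM, and levels carry no counting error here.

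Libraries correlating above 0.97 were averaged as 1 cell. The level of a group is the arithmetic mean TPM of its cells. The ratio is the log2 quotient of the Ecad- and Ecad+ levels, 1 TPM having been added to both. The deposited fold changes and p-values, which treat cells as replicates, were not used. A number in the library names separates the groups completely, being higher for every Ecad- library than for any Ecad+ library, so its effect and the sort cannot be told apart. For shares of cells, 95% Clopper-Pearson (exact) intervals were computed; they assume independent cells and reflect counting error alone. Symbols repeated in the table were taken at the row with the highest mean. Coordinates and exon overlaps come from GENCODE M21 (GRCm38, mm10), to which 27458 identifiers matched, and promoters from RefSeq. Near copies were searched among its transcripts with at least 95% identity over 200 bases. The calculation of the ratio was checked on simulated independent cells in which every gene was detected. This differs from the data here, so the check gives no error for them.

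The members and all gene lists were chosen with earlier results of these data known. Within each role group at least the lowest, the highest and the most abundant gene are described, and from other lists up to 4 genes with the largest relative ratio could be named; Chaf1a follows this rule too. Python 3.11.15, numpy 2.4.6, pandas 2.3.3 and scipy 1.17.1 were used. Alternatives were a 10% trimmed mean, means of log2 values, medians, rescaling with ribosomal protein and mitochondrial genes left out, 0.1 or 10 TPM as pseudocount, floors of 0 and 50 TPM, filters on cells, library sets left out or weighted equally, and all 202 libraries counted separately. Some items are not reported here.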

Additional observations from a re-analysis of the deposited data

How the results depend on the processing

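The count of 3 genes at least 2-fold lower in Ecad- cells was the value most dependent on the processing. It was 10 with the 10% trimmed mean, 16 with means of log2 values, 19 with medians over cells, 12 after rescaling without mitochondrial and ribosomal protein genes, 7 without low-share cells, 6 without library set 1 and 10 without library set 2. The other settings, which include pseudocounts, floors and the set weighting, gave 2 to 4. Over all genes above the floor the share was 4.14% in the main setting and 23.5% with medians over cells. It was not counted for the remaining settings. The all-gene median itself was 0.31 in the main setting, -0.28 with means of log2 values and 0.0064 after rescaling. A higher count under an alternative is therefore not a result about these genes alone. The relative median of -0.75 was -1.24 with medians over cells and otherwise -0.44 to -0.83. The count below the all-gene median was 23 to 30 under all settings, and the count lower in each set was 13 to 22 under those that could give it. With a level of 20 TPM in place of 10 TPM, at least 20 genes passed in 11.3% of Ecad- and 38.0% of Ecad+ cells. Medians over cells, the 20 TPM level and all other alternatives for that share were added after the data were seen. Of 465 ratios of single genes under alternatives, 386 lay within the spread between library sets, 79 did not and 35 had the other sign; the cause was not tested. No paired analysis was possible because each sorted group is 1 sample and the results come from no test; the library sets, which occur in both groups, give ratios within sets instead. Depth per cell is unknown, so a gene listed at 0 may be unseen rather than absent.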
